A study of Mus musculus with 24 samples.

Results

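The growth hormone (GH) and insulin-like growth factor (IGF) axis was followed through 9 genes of the 55450 in the deposited expected count table: Igf1, Igfals, Ghr, Socs2, Cish, Igfbp2, Igfbp3, Igf1r and Stat5b. The members were chosen by gene symbol, and all 24 libraries were used. RNA came from liver, cerebellum and testes of Thumpd1 knockout (KO) mice and wild-type (WT) littermates matched for age, with 4 libraries for each of the 6 groups of tissue and genotype. Thumpd1 is the adapter protein that the acetyltransferase Nat10 needs to place N4-acetylcytidine on leucine and serine tRNAs. The KO allele was made in C57BL/6N eggs with Cas9 and guides to exons 1 and 4 of Thumpd1, was carried on a C57BL/6 background and is inherited through the germline, so that it is not limited to 1 tissue. The mice were 6 to 12 weeks old, and the labels name no treatment. The labels allow either sex and give no sex per library, and each of the 24 libraries had at least 56.7 CPM (expected counts scaled to the library total) over 4 genes of the Y chromosome (Uty, Kdm5d, Eif2s3y and Ddx3y) summed. Each library thus held RNA from males.

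GH from the pituitary binds its receptor Ghr on hepatocytes, where the kinase Jak2 phosphorylates Stat5b, which enters the nucleus and binds DNA with the core letters TTCNNNGAA. Genes known to be driven this way in liver include Igf1, the circulating growth factor, Igfals, the acid-labile subunit that keeps IGF1 in blood, and Socs2 and Cish, 2 SOCS family inhibitors that turn the same signal off. Most circulating IGF1 travels in a complex of Igfbp3 and the acid-labile subunit, whereas Igfbp1 and Igfbp2 carry it in smaller complexes, and Igf1r is the receptor that IGF1 activates on its target cells.

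In mm10 the GH receptor gene Ghr spans chr15:3317760-3583492 on the minus strand and Stat5b chr11:100780731-100850724 on the minus strand. The target genes are Igf1 at chr10:87858265-87937042 (plus), Igfals at chr17:24865997-24882010 (plus), Socs2 at chr10:95385362-95417180 (minus) and Cish at chr9:107296026-107302784 (plus). The carriers are Igfbp2 at chr1:72824503-72852474 (plus) and Igfbp3 at chr11:7206086-7213923 (minus), and Igf1r spans chr7:67952827-68233668 (plus). All 9 are annotated as protein coding, and values are sums over a gene's exons.

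The letters bound by STAT proteins were sought in the RefSeq promoter windows of GRCm38.p6, each with 250 bases before a transcript start and 50 from it, because Cish, Socs2, Igfals and Igf1 were high in the same liver libraries within each genotype, as described further on, though not across the genotypes. Many other liver genes and the library composition split along the same libraries, and the search was no test of that split. The search covered TTCNNNGAA, which reads the same on both strands and was allowed to overlap other motifs. The table held 13 windows for 8 of the 9 members and no entry for Socs2. Of the 13 windows 3 held the motif, 1 of Cish and 2 of Igfals, with 4 matches in all, and 8.30% of the 32851 windows of all genes held it. The Cish window held it 2 times, which 0.457% of all windows do at least, and the 30 bases at chr9:107296654-107296683 on the plus strand, shown because both copies sit within 1 stretch at the RefSeq start, are given with the motifs in capitals. In GENCODE M21 this stretch lies inside an exon of Cish.
Cish: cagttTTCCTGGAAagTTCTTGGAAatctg
Of the 3 Igfals windows 2 held 1 motif each, 236 and 58 bases before their RefSeq starts. The stretches shown, chr17:24877594-24877655 and chr17:24877981-24878214 on the plus strand, end where the next annotated exon begins.
Igfals, upstream start: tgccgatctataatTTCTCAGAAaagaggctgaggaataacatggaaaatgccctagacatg
Igfals, downstream start: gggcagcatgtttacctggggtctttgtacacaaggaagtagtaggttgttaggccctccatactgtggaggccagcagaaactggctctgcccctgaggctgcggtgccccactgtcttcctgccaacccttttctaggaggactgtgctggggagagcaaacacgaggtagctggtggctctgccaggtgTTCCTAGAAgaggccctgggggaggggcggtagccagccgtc
The windows of Igf1, Ghr, Igfbp2, Igfbp3, Igf1r and Stat5b did not contain these letters. A match is a description of the letters and not a measured binding site.

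Library totals ranged from 16353797 to 37889615 expected counts. Thumpd1 lay between 9.19 and 10.1 CPM in WT liver, 21.8 and 24.02 in WT cerebellum and 24.3 and 26.3 in WT testes, against 0 to 4 counts in KO liver, 0 to 2 counts in KO cerebellum and 0.768 to 1.14 CPM in KO testes, which matched the labels. Hepatocyte, granule neuron and Purkinje cell, and spermatid and Sertoli cell markers were detected in the liver, cerebellum and testes libraries respectively. Libraries are named by tissue, genotype and replicate number (WT 1 to 4, KO 5 to 8). Libraries with neighbouring numbers (1 and 2, 3 and 4, 5 and 6, 7 and 8) were compared with other pairs of a group. In liver the median gene differed by 0.133 on the log2 scale between neighbours and by 0.224 between other libraries of 1 genotype, and the second difference was the wider for 76.5% of genes, against 66.0% in testes and 53.5% in cerebellum. Not every neighbour pair was the closest, since in testes WT 1 and 2 had the highest median chi-square over genes (1.60) of the 6 WT pairs, and in cerebellum KO 5 and 6 (1.07) differed more than KO 5 and 7 (1.02) or KO 5 and 8 (0.990). Neighbours still differed by more than counting noise, with median chi-square values over genes of 0.669 to 2.61 where noise alone gives 0.455. The labels do not say what neighbours share, so calls between KO and WT are given with their adjusted p when neighbours were summed, which leaves 2 sums against 2, and when neighbour pairs were a random block in the fit, singly for members and singly or as a range for other genes of the pathway. The study's legends call the RNA-seq samples biological replicates, whereas the labels do not tie each library to an animal, and p-values measure only the spread between these libraries.

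In WT mice 7 of the 9 members were highest in liver, Igf1r and Socs2 being the others. By test, 8, 9 and 6 of the 9 members differed between liver and cerebellum, liver and testes, and testes and cerebellum (limma-voom over all 24 libraries), where 85.5%, 89.7% and 89.4% of all genes did. Ghr had 332 ± 36.5 CPM (SD, n = 4, as for all group values) in liver, 5.66 ± 0.691 in cerebellum and 5.24 ± 0.844 in testes, and the last 2 were not told apart beyond their spread (adjusted p = 0.475). Igf1 stood at 275 ± 48.1 CPM in liver, 14.3 ± 1.68 in testes and 9.70 ± 0.937 in cerebellum, and each step passed. Igfals had 117 ± 33.7 CPM in liver, 1.89 ± 0.467 in testes and 0 to 5 counts per library in WT cerebellum.

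Among the signalling genes, Stat5b fell from 103 ± 9.96 CPM in liver to 70.4 ± 1.49 in cerebellum and 5.80 ± 0.360 in testes, each step past the threshold. Cish was at 28.7 ± 14.7 CPM in liver, 4.31 ± 0.469 in testes and 3.30 ± 0.495 in cerebellum, the last 2 not told apart (adjusted p = 0.423). Socs2 had another order, with 20.9 ± 0.976 CPM in cerebellum, 7.99 ± 3.73 in liver and 5.47 ± 0.457 in testes. On the log2 scale of the fit the liver and cerebellum levels of Socs2 did not differ (adjusted p = 0.566), and the call between liver and testes (adjusted p = 0.0275) was lost without WT liver 1 or 2 (0.0827 and 0.0823) and when neighbours were summed (0.123), as was that between testes and cerebellum (0.00444 against 0.0561).

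Both binding proteins were highest in liver, where the receptor gene was lowest. Igfbp2 stood at 425 ± 71.6 CPM in WT liver, 20.6 ± 13.9 in cerebellum and 8.27 ± 0.269 in testes, the last 2 not different by limma (adjusted p = 0.0711) but past the threshold in edgeR (0.00325) and without cerebellum WT 3 (0.0226) or WT 4 (0.00838), and Igfbp3 at 16.9 ± 2.18, 9.78 ± 0.692 and 2.89 ± 0.308, each step past the threshold. Igf1r was highest in cerebellum at 198 ± 5.88 CPM, followed by testes at 49.9 ± 3.95 and liver at 7.77 ± 1.14, and each step passed. To compare genes with each other, CPM was divided by the length of merged exons in kilobases. On that scale WT liver held 36.7 ± 4.03 of Ghr, 36.9 ± 10.6 of Igfals, 27.7 ± 4.86 of Igf1 and 0.463 ± 0.0680 of Igf1r, beside 15.5 ± 0.608 of the insulin receptor gene Insr. The IGF binding proteins of WT liver were led by Igfbp4 at 369 ± 6.36 and Igfbp2 at 230 ± 38.8 CPM per kilobase, with Igfbp3 at 5.40 ± 0.696.

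In KO liver the transcripts of 2 IGF carriers moved in opposite directions, with Igfbp2 higher and Igfbp3 and, less firmly, its partner Igfals lower. Of the 9 members 3 passed (limma-voom, adjusted p under 0.05), 1 higher and 2 lower, beside 5.91% of the 12816 genes tested, 2.79% higher and 3.12% lower. For 2 of the 9 members, beside 12.7% of all genes, the ranges of the WT and KO libraries were apart. The median absolute log2 change was 0.68 over the members and 0.14 over all genes tested, and the signed medians were 0.11 and 0.00. edgeR also called 3 members (6.30% of all genes), the block called 2 (2.14% of all genes), and none was called after summing neighbours, where 3 had an unadjusted p under 0.05 (9.38% of all genes) and 0.0853% of all genes were called. In these bulk tissue samples, fewer cells of a type and less RNA per cell cannot be told apart.

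Igfbp2 encodes a carrier of IGF1 that hepatocytes secrete. In liver it had 361, 368, 506 and 463 CPM in WT 1 to 4 and 745, 710, 923 and 857 CPM in KO 5 to 8. Every KO library lay above every WT library, with the lowest KO value 710 against the highest WT value 506. The log2 change was 0.95 ± 0.15 (SE), 1.93-fold, with adjusted p = 0.00587, 0.00708 with the block and 0.234 after summing, and it kept its call without any single library (highest adjusted p = 0.0189). The 12 hepatocyte markers summed to 60116 to 78528 CPM in WT and 71525 to 101497 in KO, with 2 of them called higher and 1 lower. Over all genes tested in liver 2.79% were called higher and 3.12% lower. The part of hepatocyte markers in the rise of Igfbp2 was not tested.

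Igfbp3, the main serum carrier, is known in rodent liver chiefly from nonparenchymal cells. Its liver libraries had 15.4, 16.4, 20.1 and 15.6 CPM in WT 1 to 4 and 10.2, 9.15, 9.66 and 10.5 in KO 5 to 8. All KO libraries lay below all WT libraries, and the KO libraries spanned a narrower range. The log2 change was -0.77 ± 0.12, 0.588-fold, with adjusted p = 0.00477, 0.0265 with the block and 0.201 after summing, and no library left out ended the call (highest adjusted p = 0.0211). Endothelial markers summed to 384 to 442 CPM in WT and 393 to 517 in KO, and Kupffer cell markers to 172 to 219 and 193 to 219, with 0 of 8 and 0 of 7 tested markers called. Of 9 stellate cell and fibroblast markers 1 was called higher, Rgs5 at 0.42, and 2 lower, the collagens Col1a1 at -1.03 and Col3a1 at -0.54 on the log2 scale, and their sum ran from 260 to 304 CPM in WT and from 247 to 336 in KO. Of 4 tested smooth muscle markers, listed for testes, 3 were lower in KO liver, namely Acta2 at -1.14, Myh11 at -0.93 and Tagln at -0.52, and the sum of the 6 markers ran from 15.6 to 16.9 CPM in WT and from 10.2 to 12.2 in KO. These counts stand beside 2.79% of all liver genes called higher and 3.12% lower. The part of these cell types in the fall of Igfbp3 was not tested.

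Igfals, the third member to pass in liver, had 142, 147, 104 and 75.3 CPM in WT 1 to 4 and 49.4, 50.4, 79.2 and 77.1 in KO 5 to 8. WT 1 to 3 were above all KO libraries, whereas WT 4 was below KO 7 and KO 8, so the groups overlapped. WT 4 also had the lowest hepatocyte marker sum of the 8 liver libraries, 60116 CPM, and its part in the Igfals values was not tested beyond leaving that library out. The log2 change was -0.80 ± 0.18 with adjusted p = 0.0294, and the adjusted p was 0.0516 with the block and 0.330 after summing. Leaving out WT 1, WT 2, WT 3, KO 5 or KO 6 ended the call, and the adjusted p ran from 0.0121 to 0.0915 over the 8 cases. Igf1 itself had 318, 314, 236 and 230 CPM in WT and 208, 208, 237 and 255 in KO. WT 1 and 2 were the highest and KO 5 and 6 the lowest, while WT 3 and 4 and KO 7 and 8 lay between them, both of these KO libraries above both of these WT libraries. Its log2 change of -0.19 ± 0.08 did not pass (adjusted p = 0.195).

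The receptor and transducer genes did not pass in liver. Ghr had 372, 352, 312 and 292 CPM in WT and 346, 358, 340 and 369 in KO, overlapping groups with a log2 change of 0.16 ± 0.06 (adjusted p = 0.130). Stat5b had 96.8, 92.1, 114 and 107 CPM in WT and 114, 109, 116 and 110 in KO, with a log2 change of 0.17 ± 0.10 (adjusted p = 0.347). The Stat5b values are expected counts that were not whole numbers in liver, which marks reads split between genes. Its near copy Stat5a may be among them. The share was not measured, and the values are uncertain by it. Igf1r had 6.73, 6.90, 8.37 and 9.08 CPM in WT and 5.91, 6.06, 10.9 and 10.1 in KO. Both the lowest and the highest pair of libraries were KO, and the log2 change was 0.11 ± 0.21 (adjusted p = 0.792).

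**Figure D1:**
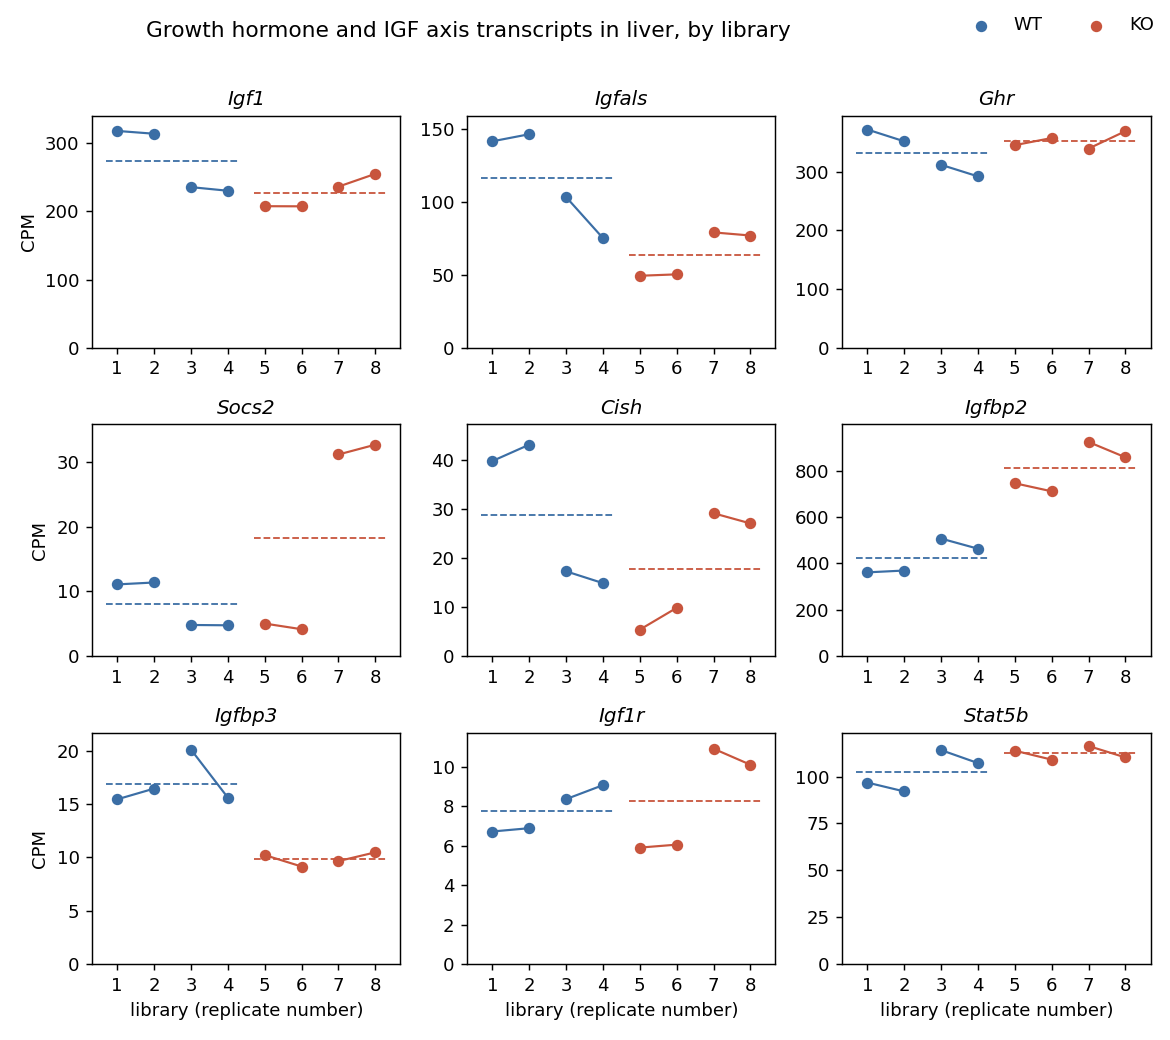
CPM (vertical axes, from 0) of the 9 members in each liver library (horizontal axes), with WT in blue, KO in red, a line between neighbouring libraries and a dashed line at the group mean. Igfbp2 lies above and Igfbp3 below the WT range in every KO library, while Socs2 and Cish split within each genotype by neighbouring libraries.

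The inhibitors Socs2 and Cish, known as early readouts of GH signalling, varied more within each genotype than between them. Socs2 had 11.1, 11.4, 4.79 and 4.74 CPM in WT 1 to 4 and 5.01, 4.13, 31.2 and 32.7 in KO 5 to 8. KO 7 and 8 were the highest of all liver libraries, and KO 5 and 6 lay with WT 3 and 4. Cish had 39.7, 43.1, 17.3 and 14.9 CPM in WT and 5.36, 9.81, 29.1 and 27.0 in KO. WT 1 and 2 were the highest for Cish and KO 5 and 6 the lowest. The log2 changes were 0.97 ± 0.66 for Socs2 (adjusted p = 0.415) and -0.68 ± 0.48 for Cish (adjusted p = 0.436), opposite in sign and each within its spread. With 1 library left out, Socs2 ran from 0.49 (without KO 7) to 1.38 (without KO 6). Cish ran from -1.05 (without KO 7) to -0.29 (without KO 5). Exons of Cish overlap those of Gm17040 and Gm17041 on the other strand, and since the strand used in counting was not given in the sources used here, its counts are uncertain.

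Neighbouring liver libraries agreed on these genes where other libraries of the same genotype did not. The mean absolute log2 difference of Socs2 was 0.0997 between neighbours and 2.02 between other libraries of a genotype, and KO 7 and 8 together held 6.98 times the level of KO 5 and 6. For Cish these were 0.328 and 1.66, with a 2.58-fold difference between the WT pairs and a 3.70-fold difference between the KO pairs. Igfals (0.144 and 0.677), Igf1r (0.0751 and 0.584), Igfbp2 (0.0845 and 0.350) and Igf1 (0.0408 and 0.341) showed the same split. It was narrower for Ghr (0.0864 and 0.161) and Stat5b (0.0755 and 0.137), and absent for Igfbp3 (0.183 and 0.144). Within each genotype the pair of libraries with more Cish also had more Socs2, Igf1 and Igfals, whereas Igfbp2 and Igf1r were higher in the pair with less Cish in WT and in the pair with more Cish in KO.

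The composition of the liver libraries split along the same pairs. A set of 6 abundant noncoding RNAs (Rn7s1, Rn7s2, Rn7sk, Gm26917, Gm42418 and Rpph1) took 17.5%, 19.0%, 23.1% and 31.0% of the counts in WT 1 to 4 and 27.2%, 26.4%, 18.8% and 17.5% in KO 5 to 8, so that within each genotype their share was lower in the pair with more Cish, Socs2, Igf1 and Igfals. WT 4 stood apart with 9.33% of its counts on Gm42418, against 0.719% to 1.16% in the other 7 liver libraries. The hepatocyte markers summed to 78528, 76207, 72574 and 60116 CPM in WT 1 to 4 and 71525, 73309, 94119 and 101497 in KO 5 to 8, higher within each genotype in the pair with more Cish. With the 6 RNAs left out of the library totals the log2 change was -0.80 for Igfals (adjusted p = 0.0291) and -0.19 for Igf1 (adjusted p = 0.196). The part of library composition in the split and in the Igfals and Igf1 values was otherwise not tested.

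Bcl6, which encodes a repressor known to be lowered by GH in liver, and which was picked for this comparison after its values were seen, had 7.75, 7.19, 70.2 and 58.3 CPM in WT 1 to 4 and 14.1, 15.9, 16.05 and 14.8 in KO 5 to 8. WT 1 and 2 were its lowest and WT 3 and 4 its highest libraries, and all KO libraries lay between them. Its log2 change was -0.50 ± 0.75 (adjusted p = 0.739).

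**Figure D2:**
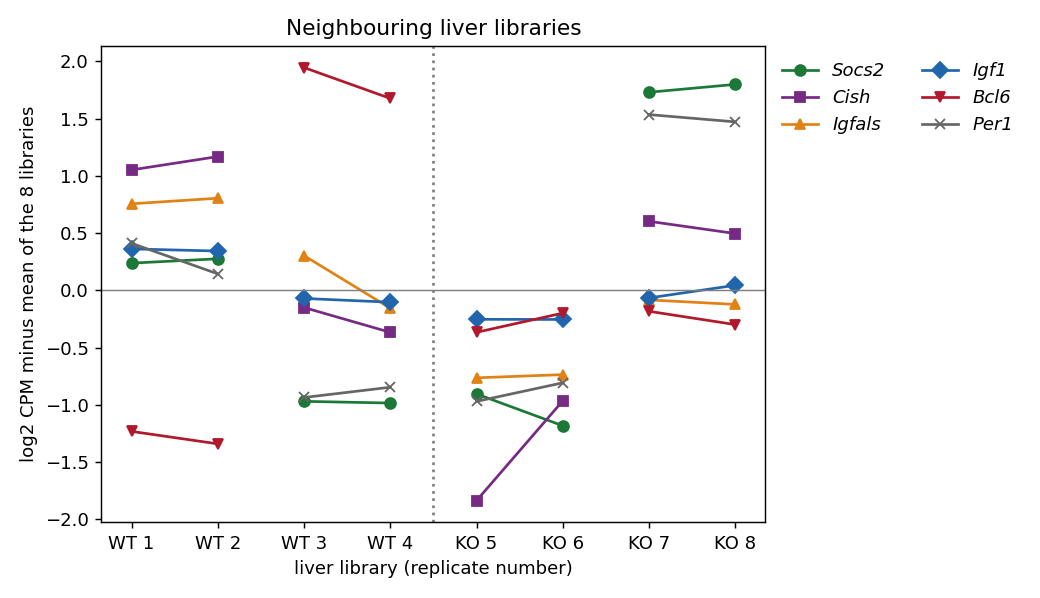
Log2 CPM of 6 genes in each liver library relative to the mean of the 8 libraries (vertical axis), with lines between neighbouring libraries and a dotted line between WT and KO. Socs2, Cish and Per1 are high in WT 1 and 2 and in KO 7 and 8, and Bcl6 is highest in WT 3 and 4.

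The genes most like 4 of the members over the 8 liver libraries were taken by Pearson r of log2 CPM among 10948 genes, as a description. Socs2 was most like Per1 (r = 0.991), a circadian clock gene, followed by Cdk12 (0.981) and Slc39a14 (0.979), and 169 genes exceeded 0.9. Per1 had 7.44, 6.18, 2.92 and 3.11 CPM in WT and 2.86, 3.20, 16.2 and 15.5 in KO, so that its high libraries were those of Socs2. Igf1 was most like Asb6 (0.987), Dhx33 (0.986) and Ndufa11 (0.983), with 435 genes above 0.9. Igfbp2 was most like Enho (0.990), which encodes the secreted peptide adropin, Mcc (0.987) and Nab2 (0.985), with 116 such genes. Igfbp3 was most like the glutathione transferase gene Gstm2 (0.981), Ces4a (0.981) and Tns2 (0.980), with 84. These 8 points share genotype and neighbour pairing, and with so few points many genes reach a high r.

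Of 60 other listed genes tested in liver, sex-biased liver genes included, 10 passed (16.7%, beside 5.91% of all genes), 5 higher and 5 lower (2.79% and 3.12% of all genes). By list, 1 of 14 GH signalling genes and 1 of 19 genes of insulin and IGF receptor signalling passed. Among IGF ligands, binding proteins and proteases 1 of 7 passed. All remaining calls came from the sex-biased liver genes described below. With the block 7 passed (2.14% of all genes), and after summing neighbours none did (0.0853% of all genes). Igfbp1, which encodes the acutely regulated liver IGF carrier and is a textbook insulin-repressed gene, had the smallest adjusted p, with 21.2, 22.4, 32.0 and 28.9 CPM in WT and 72.2, 78.9, 141 and 135 in KO. All KO libraries were above all WT libraries, with a log2 change of 2.03 ± 0.22 (adjusted p = 0.000976, 0.00121 with the block and 0.0996 after summing). Among 14 tested GH signalling genes only Socs3, an inhibitor that cytokines induce, passed, with 9.98, 9.52, 13.8 and 10.9 CPM in WT, 4.16, 3.64, 8.13 and 6.28 in KO and a log2 change of -0.95 ± 0.22 (adjusted p = 0.0327, 0.0900 with the block, 0.361 after summing). Among 19 genes of insulin and IGF receptor signalling only Irs2, the insulin receptor substrate, passed, at 0.83 ± 0.22 (adjusted p = 0.0494, 0.0711 with the block, 0.441 after summing, 0.0530 in edgeR), with overlapping groups and exons that overlap those of 9530052E02Rik. Per merged exon length Igfbp1 rose from 17.1 ± 3.38 to 70.0 ± 23.8 CPM per kilobase, against 438 ± 53.4 for Igfbp2 and 354 ± 27.7 for Igfbp4 in KO liver.

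Among liver genes whose sex bias depends on the GH pulse pattern, 3 of 14 tested male-biased and 4 of 6 tested female-biased genes passed, beside 5.91% of all genes (2.79% higher and 3.12% lower). The lists held 15 male-biased and 16 female-biased genes, and the rest did not reach the filter. Among the 4 female-biased calls Cyp2c40 and Cyp2c69 met the filter only through WT, where they were high. No conclusion is therefore drawn from the female-biased share. Of the male-biased genes 1 rose, Mup20, a major urinary protein gene, from 733 ± 81.1 to 1170 ± 114 CPM (log2 change 0.69 ± 0.10, adjusted p = 0.00380), and 2 fell, Cyp4a12b from 90.0 ± 38.2 to 29.4 ± 4.76 CPM (-1.53 ± 0.26, adjusted p = 0.00764) and Nudt7 from 331 ± 52.1 to 228 ± 6.09 (-0.46 ± 0.07, adjusted p = 0.00524). Of the female-biased genes 2 rose, Cyp17a1 from 2.80 ± 0.782 to 5.96 ± 0.628 CPM (1.09 ± 0.17, adjusted p = 0.00613) and Cyp2b9 from 2.07 ± 1.12 to 17.1 ± 12.5 (3.02 ± 0.77, adjusted p = 0.0446). In the same list 2 fell, Cyp2c40 from 6.97 ± 2.97 to 0.627 ± 0.137 CPM (-3.71 ± 0.60, adjusted p = 0.00675) and Cyp2c69 from 2.10 ± 0.808 to 0.409 ± 0.305 (-3.37 ± 0.77, adjusted p = 0.0294). Every KO library was under 1 CPM for both, at 0.454 to 0.744 for Cyp2c40 and 0.0486 to 0.730 for Cyp2c69. At such low levels the size of these log2 changes is uncertain. For each of these 7 genes all KO libraries lay on 1 side of all WT libraries, beside 12.7% of all genes tested in liver. The 7 were picked because they were called, so this adds no support of its own. With the block Cyp2b9 did not pass (adjusted p = 0.0674), and the other 6 had adjusted p from 0.0126 (Cyp4a12b) to 0.0497 (Cyp2c69). After summing none of the 7 passed, with adjusted p from 0.179 (Cyp2c40) to 0.365 (Cyp2b9). The median log2 change was -0.04 over the male-biased and -0.25 over the female-biased genes tested, beside 0.00 over all genes. The Cyp and Mup genes belong to families of near copies whose reads the counting could split, so their values are uncertain.

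In cerebellum no member passed. Of the 9 members 8 were tested, 0 were called by limma-voom (6.44% of 16225 genes) or edgeR (6.53%), and 2 had an unadjusted p under 0.05 (24.2% of all genes). Those 2, Igf1 and Igfbp3, were also the ones whose groups did not overlap, beside 13.8% of all genes. Igf1 had 9.49, 8.98, 9.26 and 11.1 CPM in WT and 7.01, 8.93, 7.51 and 8.74 in KO, every KO value below every WT value although KO 6 and WT 2 nearly met, with a log2 change of -0.29 ± 0.10 (adjusted p = 0.110). Igfbp3 had 9.53, 10.5, 10.2 and 8.92 CPM in WT and 10.8, 11.6, 12.8 and 11.7 in KO, all KO above all WT, with a log2 change of 0.23 ± 0.08 (adjusted p = 0.113). Socs2 held 19.5 to 21.9 CPM in WT and 20.2 to 22.7 in KO, a log2 change of 0.01 ± 0.06 (adjusted p = 0.912), with none of the split between libraries seen in liver. Igf1r ran from 193 to 207 CPM in WT and 195 to 213 in KO (0.05 ± 0.04, adjusted p = 0.397), and Stat5b from 69.0 to 71.7 and 69.5 to 80.8 (0.10 ± 0.05, adjusted p = 0.208), which passed only without KO 6 (adjusted p = 0.0341). Ghr and Cish had log2 changes of 0.05 ± 0.12 and 0.03 ± 0.16, and Igfals had 0 to 7 counts per library and was not tested.

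Igfbp2 in cerebellum was high in the libraries that were high in choroid plexus markers. It had 30.8, 34.4, 9.58 and 7.80 CPM in WT 1 to 4 and 9.10, 9.23, 19.7 and 16.1 in KO 5 to 8, and its log2 change of -0.48 ± 0.46 did not pass (adjusted p = 0.556). With 1 library left out, that change ran from -0.83 (without WT 4) to -0.12 (without WT 2). The 8 choroid plexus markers, led by the transthyretin gene Ttr, summed to 1065, 1093, 18.8 and 17.8 CPM in WT 1 to 4 and 22.5, 23.6, 367 and 367 in KO 5 to 8. Both were highest in WT 1 and 2 and next in KO 7 and 8, which are also neighbour pairs, and the part of choroid plexus in the Igfbp2 values was not tested. Igf2, also known from choroid plexus and meninges, had 118, 121, 73.1 and 74.2 CPM in WT and 70.5, 70.3, 78.5 and 83.9 in KO, with the same WT 1 and 2 high (log2 change -0.33 ± 0.15, adjusted p = 0.205). Of 47 other pathway genes tested in cerebellum 1 passed (2.13%, beside 6.44% of all genes), Igfbp5, with 266, 267, 269 and 275 CPM in WT and 233, 235, 230 and 225 in KO. All KO libraries were below all WT libraries, and the log2 change was -0.20 ± 0.03 (adjusted p = 0.00215, 0.00409 with the block and 0.0904 after summing). Of 8 granule neuron markers 4 were lower and 1 higher in KO, with sums of 6241 to 6507 CPM in WT and 5841 to 6189 in KO. Of 8 Purkinje cell markers 2 were higher, with sums of 6017 to 6460 CPM in WT and 6240 to 6587 in KO. Of 10 midbrain markers 4 were tested and 3 of them, Tfap2d, Th and Meis2, were higher, with a median log2 change of 1.02 over the 4 and sums over the 10 of 70.8 to 75.9 CPM in WT and 84.2 to 97.5 in KO. The part of these cell types in the fall of Igfbp5 was not tested.

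**Figure D3:**
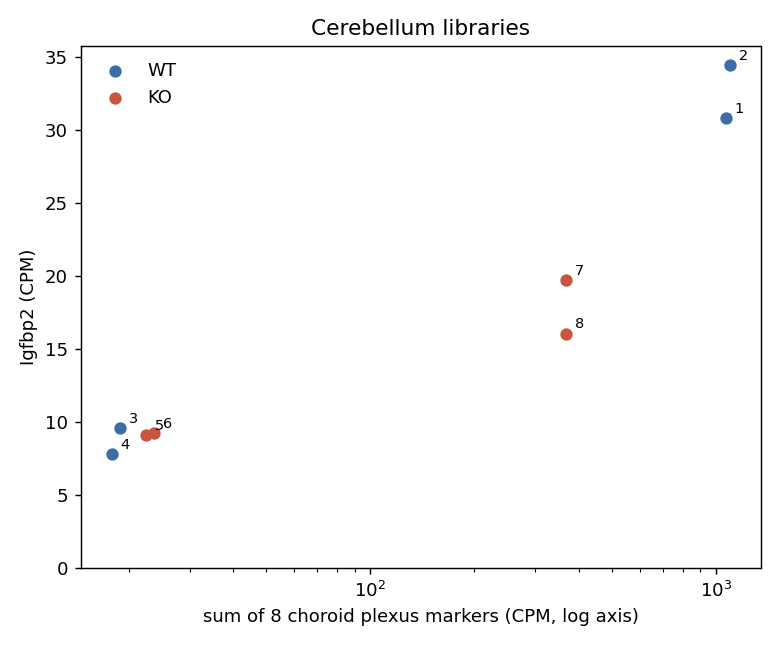
Igfbp2 in CPM (vertical axis, from 0) against the summed CPM of 8 choroid plexus markers (horizontal axis, log scale) in the 8 cerebellum libraries, numbered by replicate, WT in blue and KO in red. WT 1 and 2 are highest on both axes, KO 7 and 8 next, and the other 4 libraries lie together below 10 CPM of Igfbp2.

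In KO testes Igf1, Igf1r and Igfbp3 rose and Socs2, less firmly, fell, its call being kept in 3 of 17 alternatives. Of the 9 members 4 passed, beside 20.5% of 19329 genes tested, 9.74% higher and 10.7% lower. For 3 members, beside 28.6% of all genes, the ranges of the WT and KO libraries were apart. The median absolute log2 change was 0.34 over the members and 0.18 over all genes, and the signed medians were -0.08 and 0.00. The block called 3 members (9.17% of all genes) and edgeR 3 (23.0%). Summing neighbours left none called (0.0103% of all genes), with 4 at an unadjusted p under 0.05 (21%).

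Igf1, made in testis by somatic cells, had 16.6, 14.2, 13.2 and 13.0 CPM in WT and 21.9, 22.8, 24.6 and 21.3 in KO. Every KO library was above every WT library, with a log2 change of 0.57 ± 0.08 (adjusted p = 0.00227, 0.0108 with the block, 0.149 after summing). Igf1r had 53.7, 52.8, 47.2 and 45.9 CPM in WT and 68.7, 71.0, 110 and 102 in KO, with KO 7 and 8 well above KO 5 and 6 and all KO above all WT (0.75 ± 0.15, adjusted p = 0.00712, 0.0146 with the block, 0.164 after summing). Igfbp3 had 2.96, 3.23, 2.91 and 2.48 CPM in WT and 4.70, 4.44, 7.18 and 4.46 in KO, from 79 to 263 counts per library. KO 7 stood apart from the other 3 KO libraries, which were still above WT, and the log2 change was 0.72 ± 0.16 (adjusted p = 0.0124, 0.0478 with the block, 0.154 after summing, 0.0472 without KO 7). Socs2 had 5.60, 5.21, 6.05 and 5.02 CPM in WT and 4.50, 4.82, 5.12 and 4.64 in KO, so that KO 7 overlapped with WT 4. Its log2 change of -0.31 ± 0.10 passed narrowly (adjusted p = 0.0449) and was lost in edgeR (0.0864), DESeq2 (0.109), limma with TMM (0.0895), without a filter (0.106), with the block (0.142), after summing (0.232) and without any 1 of the 8 libraries (0.0612 to 0.137).

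The other members did not pass in testes. Stat5b had 5.58, 6.21, 5.98 and 5.42 CPM in WT and 5.81, 5.97, 10.8 and 7.71 in KO, with only KO 7 and 8 above WT (0.24 ± 0.17, adjusted p = 0.316). Ghr ran from 4.02 to 5.96 CPM in WT and 3.58 to 6.02 in KO (-0.34 ± 0.16, adjusted p = 0.149), Igfals from 1.37 to 2.51 and 1.36 to 1.79 (-0.36 ± 0.20, adjusted p = 0.208), Cish from 3.64 to 4.75 and 3.41 to 5.05 (-0.18 ± 0.14, adjusted p = 0.377) and Igfbp2 from 7.91 to 8.52 and 7.08 to 10.9 (-0.08 ± 0.12, adjusted p = 0.652). For Igfbp2 the mean CPM was slightly higher in KO (8.44 against 8.27) while the log2 change of the fit was negative.

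Cell type markers of testes also differed between the genotypes, not all in the same direction. The 10 Sertoli cell markers summed to 1224, 1299, 1137 and 1094 CPM in WT and 1405, 1454, 2038 and 1553 in KO, and 8 of the 10 were called higher, with a median log2 change of 0.53. Over all genes tested in testes 9.74% were called higher and 10.7% lower. The 10 spermatid markers summed to 11644 to 12242 CPM in WT and 8493 to 10822 in KO, and 6 of the 10 were called lower. The 6 peritubular myoid markers summed to 312 to 324 CPM in WT and 277 to 301 in KO, with 1 called lower. Among spermatogonia markers 1 of 8 was called higher, and among spermatocyte markers 1 of 8 lower. The Leydig cell markers ran from 1116 to 1207 CPM in WT and from 993 to 1627 in KO, KO 7 being the highest, with 2 of 8 called higher and 1 lower. KO 7 was thus the highest library for Sertoli markers, Leydig markers, Igfbp3, Igf1r, Igf1 and Stat5b, and the part of cell composition in the rise of Igf1, Igf1r and Igfbp3 was not tested.

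**Figure D4:**
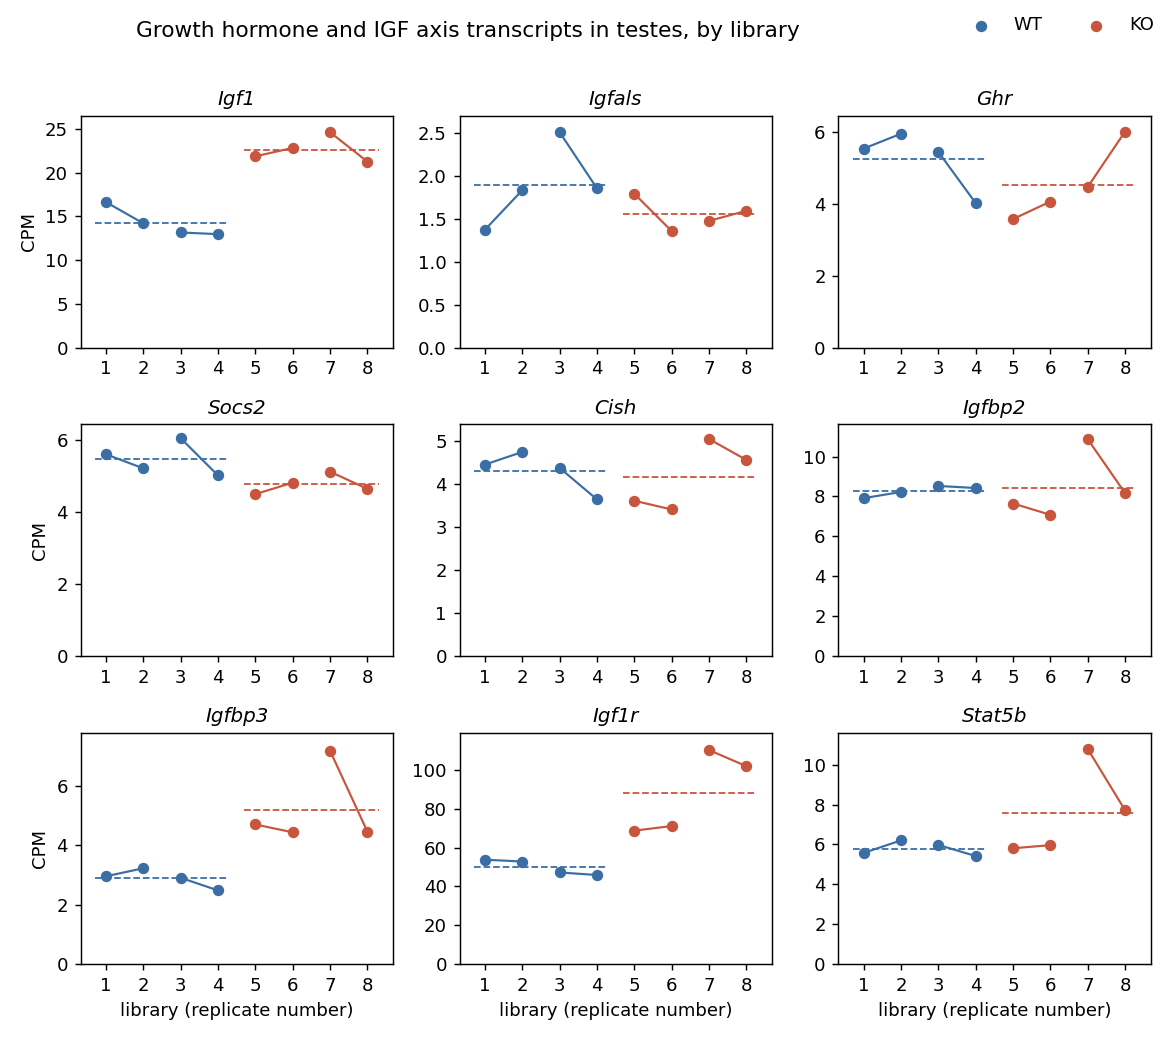
CPM (vertical axes, from 0) of the 9 members in each testes library (horizontal axes), WT in blue, KO in red, with a line between neighbouring libraries and a dashed line at the group mean. Igf1, Igf1r and Igfbp3 lie above the WT range in every KO library, and KO 7 is the highest library for these 3 genes.

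Of 55 other pathway genes tested in testes 12 passed, a share of 21.8% that was near the 20.5% of all genes. Of the 12, 11 were higher and 1 lower, beside 9.74% and 10.7% of all genes. In edgeR 15 passed (23.0% of all genes), with the block 3 (9.17%) and after summing none (0.0103%). With the block Bcl6 (adjusted p = 0.0224), Ptpn11 (0.0285) and Irs1 (0.0371) passed, and the other 9 did not, from Foxo3 (0.0511) to Hao2 (0.128). After summing the adjusted p of the 12 ran from 0.162 (Bcl6) to 0.251 (Fmo2). The GH signalling genes Bcl6 (0.67 ± 0.13, adjusted p = 0.00802), Ptpn11, a phosphatase acting below the receptors (0.40 ± 0.09, 0.0118), and Jak2 (0.31 ± 0.08, 0.0262) rose, and Ghrl, the gene of ghrelin, fell from 12.3 ± 1.22 to 10.1 ± 1.51 CPM (-0.39 ± 0.12, 0.0410, but 0.0548 in edgeR). Irs1, which relays IGF1 receptor signals, went from 5.90 ± 1.44 to 10.9 ± 2.97 CPM (0.77 ± 0.19, adjusted p = 0.0162), Foxo3 from 61.6 ± 3.45 to 86.9 ± 18.4 (0.45 ± 0.13, 0.0309) and the adaptor gene Grb10 from 36.7 ± 0.651 to 45.3 ± 2.83 (0.23 ± 0.06, 0.0211). Of the IGF list Pappa, a protease that frees IGF from its carriers, rose from 19.1 ± 0.993 to 24.9 ± 1.88 CPM (0.27 ± 0.08, adjusted p = 0.0367), as did Igfbp4 (0.33 ± 0.11, 0.0438) and Igf2bp2 (0.44 ± 0.13, 0.0325). The remaining 2 called genes, Hao2 (0.45 ± 0.14) and Fmo2 (0.50 ± 0.16), were listed for sex bias in liver. The median log2 change was 0.17 over the 55 genes and 0.00 over all genes tested. Exons of Bcl6, Irs1 and Ghrl overlap those of other genes, and their counts are uncertain.

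The KO effect on members differed between tissues for 2 of the 8 members that could be tested in each contrast (limma-voom over 24 libraries). For testes against liver the difference was 1.498 ± 0.18 for Igfbp3 (adjusted p = 1.36e-05, 0.0215 after summing) and 0.83 ± 0.13 for Igf1 (adjusted p = 0.000198, 0.0694 after summing), beside 16.4% of 11112 genes called. For cerebellum against liver it was 1.02 ± 0.16 for Igfbp3 (adjusted p = 0.000335, 0.0838 after summing) and -1.39 ± 0.42 for Igfbp2 (adjusted p = 0.0403, 0.378 after summing), beside 7.91%. The Igfbp2 difference rests in part on cerebellum libraries that differ in choroid plexus markers, and the call was lost without liver WT 1, WT 2 or KO 8, or cerebellum WT 1, WT 2, KO 5, KO 6 or KO 8 (adjusted p up to 0.110). For testes against cerebellum it was 0.83 ± 0.19 for Igf1 (adjusted p = 0.00616) and 0.65 ± 0.15 for Igf1r (adjusted p = 0.00719), beside 14.6%, with 0.146 and 0.234 after summing. After summing, 0.0985%, 0.430% and 0.0179% of all genes differed for cerebellum against liver, testes against liver and testes against cerebellum. Igfbp3 was thus lower in KO liver and higher in KO testes, with the difference between these tissues past the threshold also after summing. The difference between testes and liver did not pass for Igf1r (0.54 ± 0.23, adjusted p = 0.116, 0.0427 without testes KO 5), Igfbp2 (-1.02 ± 0.43, adjusted p = 0.106), Socs2 (-1.29 ± 0.69, adjusted p = 0.205) or Stat5b (0.12 ± 0.18, adjusted p = 0.677). For Ghr it was -0.42 ± 0.15 (adjusted p = 0.0614, 0.271 after summing), which passed without liver WT 1 (0.0476), testes WT 4 (0.0201) or testes KO 8 (0.0174). The contrasts share libraries and are not independent of each other.

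**Figure D5:**
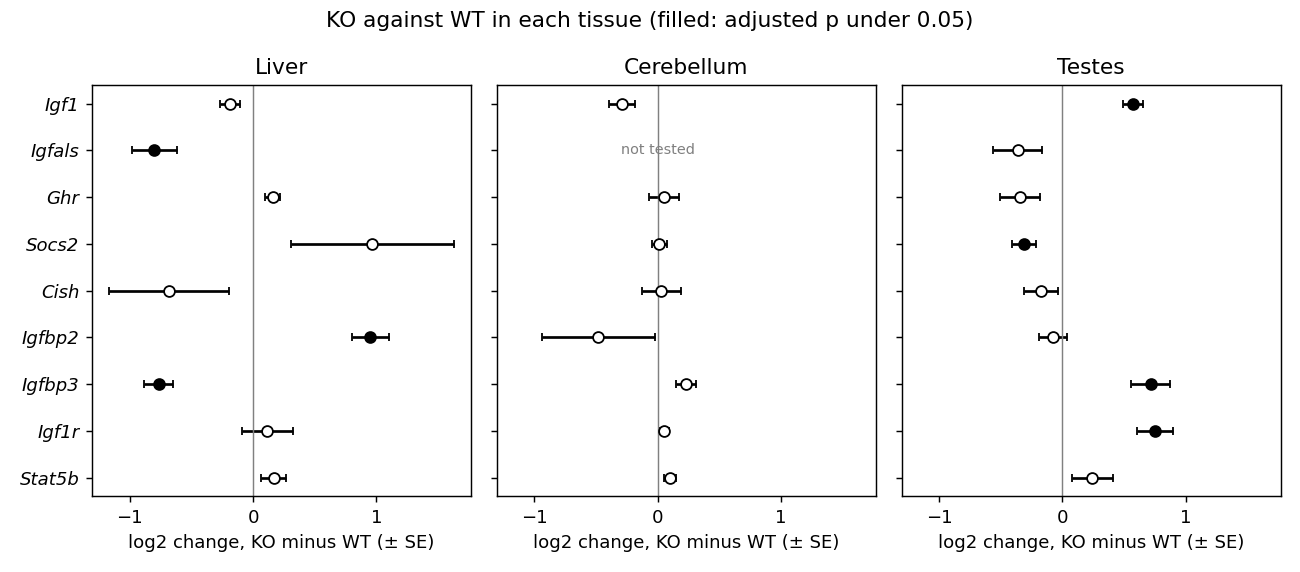
Log2 change of KO against WT with its standard error (horizontal axes) for the 9 members in liver, cerebellum and testes, with filled points for an adjusted p under 0.05. Igfbp3 is on opposite sides of 0 in liver and testes, and no cerebellum point is filled.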

How the data were processed

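The authors deposited 1 table of expected counts, unscaled, from STAR alignment to mm10 and RSEM quantification with GENCODE M21, for stranded, ribosome-depleted, paired-end total RNA libraries. Tool versions and the strand setting are not given in the sources used here. Between 12.3% and 16.6% of the nonzero values in a library were not whole, and all 55450 identifiers matched the annotation. Symbols were read from the identifiers, and 0 columns were left unmatched to a sample. The members and gene lists were chosen with earlier results of these data known.

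Each tissue was fitted apart. Genes with at least 1 CPM in at least 4 of 8 libraries were quantile normalized with voom and compared with limma 3.58.1 in R 4.3.3, with Benjamini-Hochberg adjustment over all genes and a threshold of 0.05. Differences between tissues used all 24 libraries with TMM factors. Alternatives were edgeR 4.0.16 and DESeq2 1.42.0 on counts rounded to whole numbers, TMM, other filters, quality weights, totals without 6 noncoding RNAs and each library left out. Sums and blocks of neighbouring libraries were added after the data were seen. The scripts were tested on simulated data. Named genes were the 9 members, up to 12 called pathway genes per tissue by adjusted p, the 3 genes most like 4 members in liver, and markers beside a result. Counting limits the precision: a count of 0 allows up to 3 counts.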

Additional observations from a re-analysis of the deposited data

Results flagged for a closer look

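Igfbp3 in testes KO 7, at 7.18 CPM, stood far from the other 3 KO libraries by Dixon's criterion, the only case in 54 sets of 4 libraries examined, where chance gives about 1 in 20. The KO effect of 6 combinations of member and tissues differed between tissues by a test of the difference. For Igfbp3 the log2 difference was 1.02 for cerebellum minus liver and 1.498 for testes minus liver. For Igf1 it was 0.83 for testes minus liver and 0.83 for testes minus cerebellum, for Igf1r 0.65 for testes minus cerebellum, and for Igfbp2 -1.39 for cerebellum minus liver.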

How the results depend on the processing

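With neighbouring libraries summed, 2 sums per group, 0 members were called in liver and 0 in testes, 0 other pathway genes in each tissue, and 0, 1 and 0 members whose KO effect differed for cerebellum against liver, testes against liver and testes against cerebellum. The cause was not tested beyond the smaller number of samples. Over the settings that leave out 1 library, 2 to 3 members were called in liver, 0 to 1 in cerebellum (1 without KO 6) and 3 to 3 in testes. The other pathway genes called ran from 5 to 9 in liver (5 without WT 1 or WT 3, 6 without WT 2 or KO 8). They ran from 1 to 8 in cerebellum (8 without KO 6, 2 without WT 2, WT 4, KO 5 or KO 7) and from 2 to 14 in testes (2 without WT 3 or WT 4, 4 without WT 2, 5 without WT 1, 6 without KO 7 or KO 8). Members whose KO effect differed ran from 1 to 2, 2 to 3 and 2 to 2 for the 3 contrasts in the order above, and WT tissue differences from 8 to 8, 8 to 9 and 6 to 7 for liver against cerebellum, liver against testes and testes against cerebellum.

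Only values that did not pass turned sign, all but 1 of them on leaving out a library. The KO change then ran from -0.0520 to 0.23 for Igf1r in liver and, in cerebellum, from -0.0182 to 0.12 for Ghr, -0.0152 to 0.0415 for Socs2 and -0.0337 to 0.17 for Cish. The cerebellum minus liver difference ran from -0.0634 to 0.0566 for Igf1 (0.00243 after summing), -0.0919 to 0.0614 for Ghr, -0.24 to 0.0620 for Igf1r and -0.0981 to 0.0294 for Stat5b, and that of Stat5b from -0.0642 to 0.23 for testes minus liver and -0.0278 to 0.26 for testes minus cerebellum. Sample quality weights made Ghr (adjusted p = 0.0411) and Igfbp2 (0.0376) pass as lower in testes, and without a filter Igfals in liver did not pass (0.0590). Of the 442 alternative values of the KO changes, 404 kept direction and call. No setting of scaling moved the median of all genes by 0.1 or more.

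No paired analysis was possible within a tissue because WT and KO share no replicate number. Across tissues, same-numbered libraries correlated from -0.205 to 0.204 in their deviations, so the numbers were not taken to pair samples. With the replicate number as a replicate block, 2, 3 and 2 members differed in KO effect in the 3 contrasts against 2, 2 and 2 without it, the added one being Ghr for testes minus liver (adjusted p = 0.0496, but 0.271 with neighbouring libraries summed).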
